A study of Mus musculus with 80 samples.

Results

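The nuclear genes of oxidative phosphorylation (OXPHOS) were followed through every microglial preparation of the study, in the RNA of the whole sample and in the RNA bound to tagged ribosomes of *Cx3cr1*-expressing cells. Members were the genes whose symbol begins with Nduf, Sdh, Uqcr or Atp5, or with Cox followed by a digit, without the Sdhaf assembly factors. No expression value enters this rule, although the members were chosen with earlier results of these data known. The rule took 96 of the 15919 genes listed in the sort comparison and 96 of the 16000 in the cell preparation comparison, and all of them passed the filter on low counts in both. By complex, 43 belonged to complex I, 4 to complex II, 8 to complex III, 25 to complex IV and 16 to complex V, and they lay on 19 chromosomes. Complex I included 7 assembly factors, and complex IV included 8.

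All animals were Cx3cr1-NuTRAP mice of both sexes (Cx3cr1-cre/ERT2+/wt with 1 NuTRAP flox allele), given tamoxifen at about 3 months and harvested at 5 to 8 months. Recombination tags ribosomes with eGFP in microglia and also in other brain cells that express *Cx3cr1*, such as border macrophages. For each sample, Input is the RNA of the lysate and TRAP is the RNA recovered with the tagged ribosomes by an anti-GFP pull-down. The sort comparison held Tissue (n = 4), the unsorted papain cell suspension (Cell, n = 4), and cells sorted by autoMACS with CD11b beads (n = 4), autoMACS to Tyto (n = 3), Tyto (n = 5) or FACSAria (n = 4). In the cell preparation comparison, 4 samples each came from Tissue, from a Dounce homogenate kept cold and cleared on Percoll, and from cell suspensions made without, Cell (-) Inhibitors, or with, Cell (+) Inhibitors, actinomycin D, triptolide and anisomycin. Tissue and Cell came from the same 4 mice, the Tissue mice were shared by both comparisons, both inhibitor groups came from 4 other mice, and the Dounce samples came from 4 more mice, so that the Dounce preparation and its mice cannot be told apart. The sorted samples came from other mice than Tissue and Cell, with 3 mice shared by autoMACS and autoMACS to Tyto and 3 by Tyto and FACSAria, which the F test between sorts did not take into account.

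OXPHOS couples the oxidation of NADH and succinate to ATP synthesis on the inner mitochondrial membrane. Complex I (NADH dehydrogenase, Nduf genes) and complex II (succinate dehydrogenase, Sdh genes) pass electrons to complex III (Uqcr genes) and then to complex IV (cytochrome c oxidase, Cox genes), and complex V (ATP synthase, Atp5 genes) uses the resulting proton gradient. Most subunits are encoded in the nucleus, and a core set of complexes I, III, IV and V is encoded by mitochondrial DNA. In brain, neurons are known for a high demand on this pathway. Several complex IV subunits have isoforms tied to particular tissues, such as Cox6a2, Cox7a1 and Cox8b in striated muscle and Cox6b2 in testis.

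The upstream sequences of 6 members are shown because ubiquitous and tissue-restricted isoforms of the same subunit moved apart in these data. The others shown, *Sdha* and *Cox6a1*, carry the motif letters for which OXPHOS genes are known. Each sequence is the 160 bases before the RefSeq start (build GRCm38.p6, all on the minus strand, printed 5′ to 3′ along the gene), with capitals at motif letters found on either strand. *Cox6b1* and *Cox8a* are the ubiquitous partners of *Cox6b2* and *Cox8b*.
Cox6b1, chr7:30626115-30626274: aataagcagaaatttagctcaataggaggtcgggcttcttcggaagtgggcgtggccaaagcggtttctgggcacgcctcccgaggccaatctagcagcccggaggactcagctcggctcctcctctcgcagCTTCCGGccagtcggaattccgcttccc
Cox6b2, chr7:4753095-4753254: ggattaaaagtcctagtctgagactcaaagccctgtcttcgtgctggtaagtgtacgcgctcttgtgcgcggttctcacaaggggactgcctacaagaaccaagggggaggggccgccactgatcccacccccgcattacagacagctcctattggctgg
Cox8a, chr19:7217617-7217776: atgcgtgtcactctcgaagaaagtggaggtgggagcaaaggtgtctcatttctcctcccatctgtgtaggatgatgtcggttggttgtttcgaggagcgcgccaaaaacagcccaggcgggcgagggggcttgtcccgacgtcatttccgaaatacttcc
Cox8b, chr7:140900447-140900606: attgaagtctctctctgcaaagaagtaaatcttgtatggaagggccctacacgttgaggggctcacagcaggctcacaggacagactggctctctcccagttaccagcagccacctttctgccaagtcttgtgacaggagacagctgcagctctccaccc
Sdha, chr13:74350241-74350400: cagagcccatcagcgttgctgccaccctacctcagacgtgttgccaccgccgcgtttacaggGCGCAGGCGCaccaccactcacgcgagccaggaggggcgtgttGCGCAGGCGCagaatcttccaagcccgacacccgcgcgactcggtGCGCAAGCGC
Cox6a1, chr5:115348959-115349118: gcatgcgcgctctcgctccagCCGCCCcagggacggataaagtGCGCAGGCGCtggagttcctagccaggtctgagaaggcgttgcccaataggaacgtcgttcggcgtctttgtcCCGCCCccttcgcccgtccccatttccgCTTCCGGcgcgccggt

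The motifs searched were GCGCA, any base and GCGC in a row for NRF1, CCGGAAG for ETS factors such as GABP, AANATGGCG for YY1 and GGGCGG for Sp1, on both strands of the 250 bases before the start, with matches of different motifs allowed to overlap. *Sdha* held 3 NRF1 matches, *Cox6a1* held 1 ETS, 1 NRF1 and 2 Sp1 matches, and *Cox6b1* held 1 ETS match in the stretches shown. Of the 96 members, 79 had an entry. NRF1 letters stood in 14 of them (17.7%) against 4.23% of 27025 genes, ETS letters in 15 (19.0%) against 7.83%, YY1 letters in 4 (5.06%) against 1.29%, and Sp1 letters in 33 (41.8%) against 35.4%. Members with and without NRF1 letters had median log2 fold changes of -0.78 and -0.83 for Cell-Input against Tissue-Input. For Cell-TRAP against Tissue-TRAP they were -1.40 and -1.44, and for Sorted-TRAP against Cell-TRAP -0.34 and -0.24. With and without ETS letters, the medians for Cell-Input against Tissue-Input were -0.73 and -0.86, with 0 of 15 and 11 of 64 lower at an FDR under 0.1 and a fold change above 2. For Cell-TRAP against Tissue-TRAP both ETS medians were -1.44, with 12 of 15 and 50 of 64 lower by that rule. These are letter matches and not measured binding sites.

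Depth, the sum of counts over listed genes, was 7129451 to 20168163 (median 15211962) in the 48 libraries of the sort comparison and 2471428 to 14650332 (median 10179920) in the 32 libraries of the cell preparation comparison. Dounce-TRAP was shallowest, with 2471428 to 4724563. The 13 OXPHOS genes of mitochondrial DNA are not analysed here, so every value concerns the nuclear side. For 9 members (*Atp5c1*, *Atp5k*, *Atp5l*, *Cox5b*, *Cox7c*, *Ndufa12*, *Ndufab1*, *Ndufs5* and *Uqcrh*) a pseudogene named after the member is annotated, and their counts are uncertain to that extent. Cell markers moved with the labels, as 12 microglial markers took 0.0481 to 0.0730% of the counts in Tissue-Input and 4.79 to 5.41% in the sorted TRAP libraries, while 12 neuronal markers took 1.04 to 1.08% and 0.00111 to 0.00201%. In bulk RNA, fewer cells of a type and less RNA per cell cannot be told apart.

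The 96 genes together took a smaller share of the counts wherever cells had been separated from the tissue. In the sort comparison the share was 1.63% ± 0.0763 (SD, n = 4) in Tissue-Input, 1.01% ± 0.0912 (SD, n = 4) in Cell-Input, and after FACSAria sorting it was 0.438% ± 0.0144 (SD, n = 4) in Input. The other sorted Input groups had 0.528% ± 0.0343 (SD, n = 4) in autoMACS, 0.476% ± 0.0270 (SD, n = 3) in autoMACS to Tyto, and 0.466% ± 0.0284 (SD, n = 5) in Tyto. In TRAP the step lay between tissue and suspension, with 1.48% ± 0.0830 (SD, n = 4) in Tissue, 0.510% ± 0.0212 (SD, n = 4) in Cell and means of 0.413 to 0.510% in the 4 sorts. In the cell preparation comparison the Input share was 1.62% ± 0.0666 (SD, n = 4) in Tissue, 1.11% ± 0.0816 (SD, n = 4) in Cell (-) Inhibitors, 1.09% ± 0.137 (SD, n = 4) in Cell (+) Inhibitors and 0.399% ± 0.0462 (SD, n = 4) in Dounce. No Tissue library overlapped any library of a cell preparation in these shares.

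**Figure D1:**
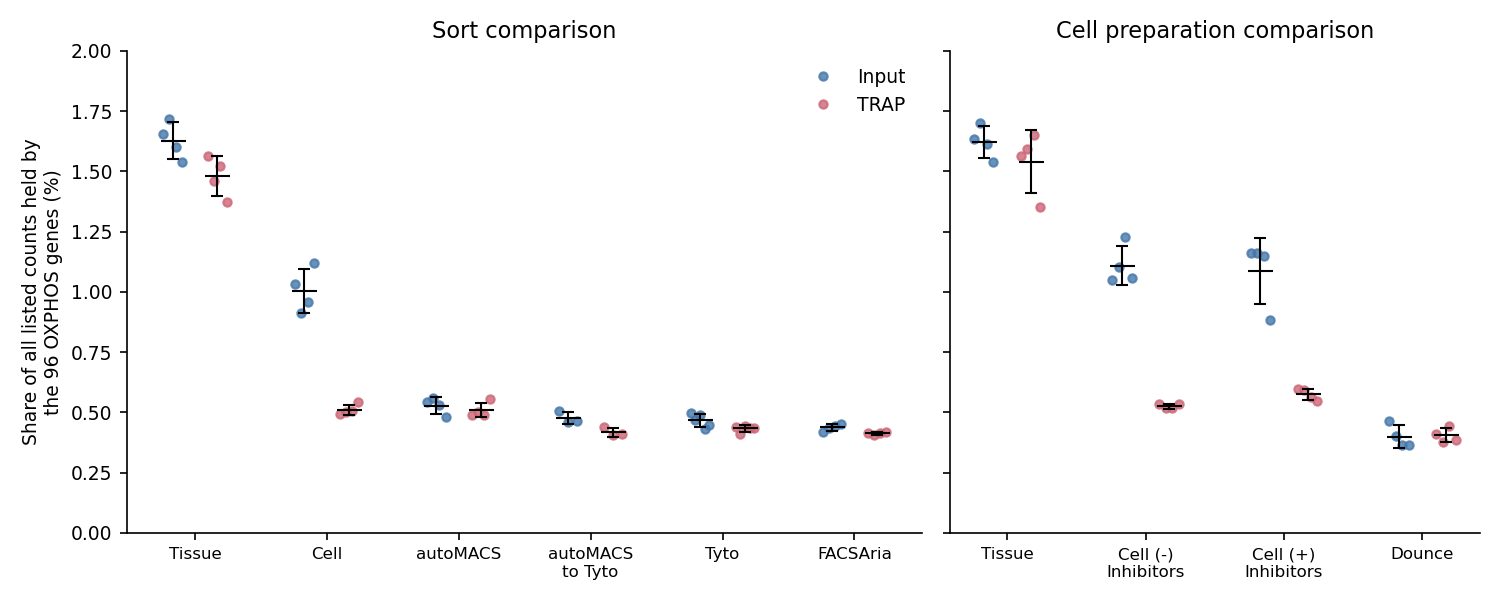
Share of all listed counts held by the 96 OXPHOS genes (y axis, percent) in each library of the sort comparison (left) and of the cell preparation comparison (right), with Input in blue and TRAP in red. Points are libraries, and black bars give the group mean ± SD. Tissue lies highest in both fractions, Cell-Input lies between tissue and sorted cells, and Cell-TRAP (mean 0.510%) already lies at the level of autoMACS-TRAP (mean 0.510%).

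Levels between genes were compared as counts per 1e6 counts (CPM, scaled to TMM-normalized library sizes) per kilobase of the median length of the gene's protein-coding transcripts (GENCODE). In Tissue-Input the highest levels were those of *Cox4i1* (663 CPM per kb), the main isoform of complex IV subunit 4, and *Atp5b* (617 CPM per kb), the catalytic beta subunit of ATP synthase, followed by *Cox8a* (451 CPM per kb). In Sorted-Input *Cox4i1* (306 CPM per kb) and *Atp5b* (225 CPM per kb) still stood first, and *Cox7a2l* (186 CPM per kb), which joins complexes III and IV into supercomplexes, came next. In Sorted-TRAP *Atp5b* (288 CPM per kb) and *Atp5a1* (220 CPM per kb), the alpha subunit, led, with *Cox4i1* at 214 CPM per kb. CPM values below are those of 1 table and are not compared between the tables, which were normalized separately.

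The first comparison asks how the enzymatic suspension differs from the tissue it was made from. *Atp5b* (Entrez 11947, mm10 chromosome 10, 128083307 to 128090388) stood at 1189, 1198, 1188 and 1156 CPM in Tissue-Input and at 705, 635, 661 and 748 CPM in Cell-Input. The groups did not overlap, and the log2 fold change was -0.78 ± 0.08 (SE, edgeR FDR = 2.53e-11). Of the 96 genes, 84 were lower in every Cell-Input library than in every Tissue-Input library and 3 were higher in every one, where 36.3 and 38.9% of all genes tested separated the groups in those directions. The median log2 fold change was -0.76 for the members against 0.07 for all genes tested. At an FDR under 0.1 and a fold change above 2 (called), 13 members were lower and 4 higher, where 19.1% of all genes tested were called lower and 26.8% higher. The share of members called lower was thus below that of all genes. Without replicate 4 of Cell-Input 27 members were called in all, and the other leave-one-out fits gave 15 or more.

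By complex, the medians were -0.90 for complex I (9 of 43 called lower), -0.32 for complex II (0 of 4), -0.66 for complex III (0 of 8), -0.48 for complex IV (4 of 25 lower, 4 higher) and -0.73 for complex V (0 of 16). *Sdha*, the flavoprotein of complex II, had 426, 431, 417 and 404 CPM in Tissue-Input and 296, 285, 291 and 315 CPM in Cell-Input, a log2 fold change of -0.50 ± 0.06 (SE, edgeR FDR = 9.8e-10), which did not reach the fold threshold. *Cox5a* (chromosome 9, 57521232 to 57532426), a complex IV subunit close to the catalytic core, fell from 177, 179, 172 and 165 CPM to 66.3, 59.5, 64.5 and 61.8 CPM, or by 1.46 ± 0.10 on the log2 scale (edgeR FDR = 1.84e-16). *Ndufaf5* (chromosome 2, 140170646 to 140205252), an arginine hydroxylase needed for complex I assembly, fell from 28.7, 30.4, 27.4 and 28.2 CPM to 9.33, 7.86, 8.37 and 7.90 CPM. Both genes separated the groups completely.

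The largest fall was that of *Cox6a2* (chromosome 7, 128205435 to 128206366), the muscle form of subunit 6a, which is also known from parvalbumin interneurons. It had 3.03, 2.89, 2.60 and 3.31 CPM in Tissue-Input and 0.667, 0.962, 0.224 and 0.894 CPM in Cell-Input, a log2 fold change of -2.10 ± 0.43 (SE, edgeR FDR = 3.35e-05). Its ubiquitous partner *Cox6a1* had a log2 fold change of -0.46 ± 0.10. In the same comparison all 12 neuronal markers were called lower, and their part in these results was not tested.

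In the cell preparation comparison, Cell-Input (-) Inhibitors against Tissue-Input gave a median of -0.52 against 0.19 for all genes, with 4 members called lower (16.7% of all genes) and 5 higher (28.3% of all genes). The called members were *Cox6a2* (-1.81 ± 0.40), *Ndufaf5* (-1.65 ± 0.24), *Cox5a* (-1.18 ± 0.15) and *Ndufa5* (-1.14 ± 0.17) on the lower side, and 70 of 96 genes lay lower without overlap, as did 28.9% of all genes. The Tissue mice are those of the sort comparison, while the suspensions came from other mice. *Cox4i1* had 618, 640, 559 and 543 CPM in Tissue-Input and 590, 522, 703 and 547 CPM in Cell-Input (-) Inhibitors, so that these groups overlapped, and the sign of the difference changed with the scaling.

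A small set of complex IV isoforms went the other way in the suspension. *Cox8b* (chromosome 7, 140898942 to 140900446), the muscle form of subunit 8, stood at 1.56, 0.979, 1.16 and 0.522 CPM in Tissue-Input and at 6.28, 1.50, 6.67 and 7.45 CPM in Cell-Input. Replicate 2 of Cell-Input lay within the tissue range and the other 3 above it, and the log2 fold change was 2.37 ± 0.67 (SE, edgeR FDR = 0.0017). *Ndufa4l2* (chromosome 10, 127514939 to 127517156), a hypoxia-induced relative of *Ndufa4*, had 2.34, 1.68, 2.04 and 1.61 CPM in Tissue-Input and 4.67, 6.95, 8.77 and 8.45 CPM in Cell-Input, without overlap (1.91 ± 0.60, edgeR FDR = 0.00444). *Cox6b2* (chromosome 7, 4751794 to 4753094), had 2.73, 2.43, 2.64 and 2.13 CPM in Tissue-Input and 10.2, 5.08, 9.48 and 10.3 CPM in Cell-Input, again without overlap (1.82 ± 0.40, edgeR FDR = 8.49e-05). *Cox4i2* (chromosome 2, 152754173 to 152765037), the isoform of subunit 4 known from lung and from pericytes, rose with a log2 fold change of 1.28 ± 0.58 (edgeR FDR = 0.0457).

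The partners of these isoforms fell. *Cox8a* had a log2 fold change of -0.49 ± 0.11, *Cox6b1* of -0.91 ± 0.09, *Ndufa4* of -1.09 ± 0.08 and *Cox4i1* of -0.40 ± 0.09, all at an FDR under 0.1 and only *Ndufa4* called. The partners remained far more abundant, since the 4 rising isoforms together had a mean of 7.08 CPM in Tissue-Input and 25.4 CPM in Cell-Input. In Cell-Input (-) Inhibitors of the cell preparation comparison the same 4 were called higher together with *Cox7a1* (chromosome 7, 30184171 to 30186030), the muscle form of subunit 7a. There *Cox8b* went from 1.78, 1.46, 1.18 and 1.89 CPM to 10.7, 12.1, 22.2 and 12.0 CPM (3.16 ± 0.53, edgeR FDR = 6.5e-06) and *Cox6b2* from 2.71, 4.94, 4.32 and 3.68 CPM to 13.9, 18.8, 25.7 and 17.2 CPM (2.27 ± 0.40, edgeR FDR = 9.56e-06). Endothelial and mural markers moved with these isoforms: 12 of 12 endothelial and 10 of 11 mural markers were called higher in Cell-Input of the sort comparison, and the summed endothelial share was 0.00896 to 0.0115% in Tissue-Input and 0.174 to 0.317% in Cell-Input. Their part in the result was not tested.

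**Figure D2:**
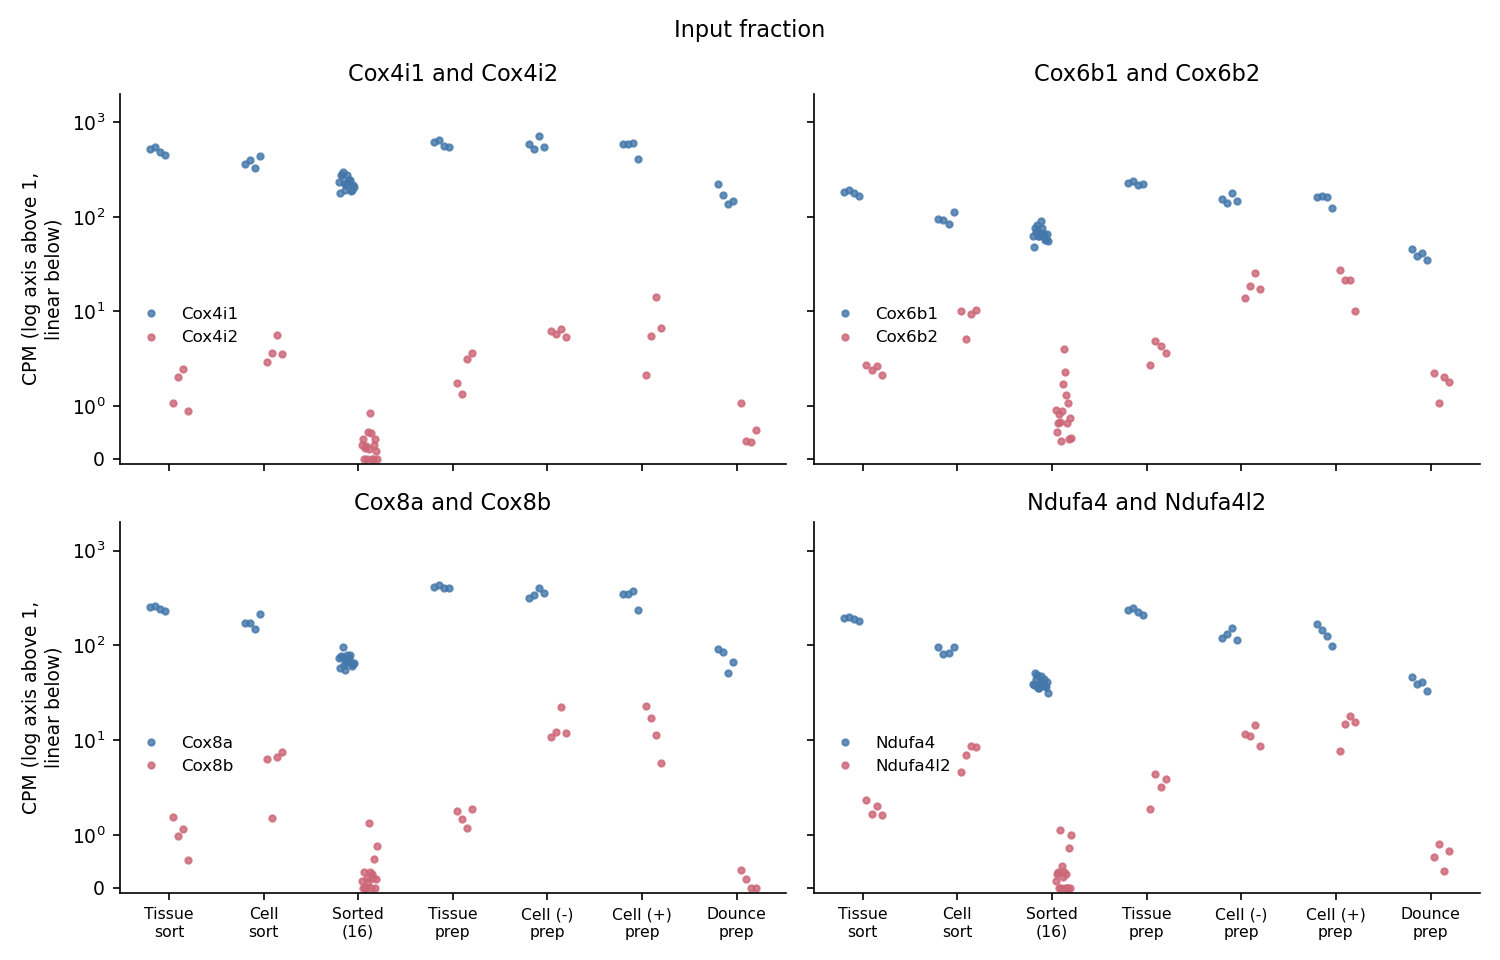
Levels in the Input fraction (y axis, CPM, log scale above 1 and linear below) of 4 ubiquitous genes (blue) and their tissue-restricted relatives (red) in Tissue, Cell and the 16 sorted libraries of the sort comparison, and in the 4 groups of the cell preparation comparison. Each point is a library. The red isoforms peak in the cell suspensions, where they sum to 25.4 CPM in Cell-Input, and lie lowest in the sorted and Dounce libraries, where they sum to 1.91 and 3.08 CPM.

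TRAP enriches the RNA of the tagged cells, but Tissue-TRAP still held neuronal markers at a share overlapping that of Tissue-Input, as given below. In Cell-TRAP against Tissue-TRAP, 72 of 96 members were called lower and 0 higher, where 29.5% of all genes tested were called lower and 23.8% higher, and the medians were -1.37 for the members and -0.05 for all genes. In 92 members every Cell-TRAP library lay below every Tissue-TRAP library, and in 1 member every one lay above, where 38 and 36.1% of all genes did so. *Atp5b* had 1332, 1015, 1213 and 1113 CPM in Tissue-TRAP and 562, 521, 509.9 and 552 CPM in Cell-TRAP (-1.12 ± 0.08, edgeR FDR = 4.43e-16). *Cox4i1* had 525.9, 443, 515 and 461 CPM against 192, 201, 196 and 217 CPM (-1.27 ± 0.09, edgeR FDR = 1.23e-16). In both genes the groups were far apart.

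Complex I was called lower in 37 of 43 genes (median -1.38), complex III in 6 of 8 (-1.35), complex IV in 15 of 25 (-1.43) and complex V in 14 of 16 (-1.47). Complex II stood out with 0 of 4 called and a median of -0.44. *Sdha* had 468, 373, 444 and 401 CPM in Tissue-TRAP and 317, 298, 294 and 303 CPM in Cell-TRAP, which did not overlap (-0.48 ± 0.06, edgeR FDR = 2.2e-09). Within complex IV the 17 subunits had a median of -1.74 (13 called lower) and the 8 assembly factors one of -0.52 (2 called lower). Within complex I the 29 supernumerary subunits had a median of -1.51 (27 called lower), the 7 core subunits -1.14 (5 called lower) and the 7 assembly factors -1.10 (5 called lower).

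The largest falls were those of *Cox7a1* (2.96, 2.75, 2.17 and 1.16 CPM in Tissue-TRAP to 0.441, 0, 0.237 and 0.500 CPM in Cell-TRAP, -2.87 ± 0.75, edgeR FDR = 0.000756), *Ndufaf5* (30.6, 25.0, 27.8 and 28.4 to 5.15, 6.41, 5.86 and 5.06 CPM, -2.31 ± 0.19) and *Ndufs5* (74.1, 64.7, 72.6 and 64.3 to 14.1, 12.4, 16.4 and 18.3 CPM, -2.17 ± 0.12), a small complex I subunit. Each of them separated the groups. *Atp5g1*, 1 of 3 genes for the same c subunit of the ATP synthase ring, fell by 2.00 ± 0.15, *Atp5g3* by 1.88 ± 0.11 and *Atp5g2* by 1.14 ± 0.09 on the log2 scale. *Cox15*, which makes heme A for complex IV and was singled out after its values were seen, was the member without overlap on the higher side, with 25.6, 25.9, 24.2 and 22.3 CPM in Tissue-TRAP and 31.7, 31.2, 34.5 and 31.6 CPM in Cell-TRAP (0.40 ± 0.12, edgeR FDR = 0.00223), although its log2 fold change was -0.03 when genes under 10 counts in any sample were left out.

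The 12 neuronal markers took 0.911 to 1.05% of counts in Tissue-TRAP and 0.0148 to 0.0391% in Cell-TRAP, and the microglial markers 1.06 to 1.25% and 4.29 to 4.68%, so the makeup of the pulled-down RNA moved with the OXPHOS genes. Its part in the result was not tested. In the cell preparation comparison, Cell-TRAP (-) Inhibitors against Tissue-TRAP called 77 members lower (31.9% of all genes) and 0 higher (20.5% of all genes), with a median of -1.56 against -0.23. *Atp5b* had a log2 fold change of -1.29 ± 0.12, and *Ndufaf5* (-2.82 ± 0.26), *Atp5k* (-2.50 ± 0.15), subunit e of ATP synthase, and *Ndufc1* (-2.48 ± 0.19) of complex I fell furthest.

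In Input, the median of the OXPHOS genes was lower in sorted cells than in the suspension, which came from other mice. The part of mice and of cell makeup was not tested. Sorted-Input, the mean of the 4 sorts with equal weight, had a median of -0.63 against Cell-Input, where all genes had 0.14, with 23 members called lower (32.7% of all genes) and 1 higher (22.8% of all genes). With DESeq2's size factors, which moved the median of all genes by -0.49, 55 were called lower and 1 higher (37.4 and 13% of all genes). *Atp5b* stood at 323 to 482 CPM in the 16 sorted libraries against 635 to 748 CPM in Cell-Input. Complex IV subunits had a median of -1.16 (10 of 17 called lower), while the 8 complex IV assembly factors had one of 0.24 (0 called). *Atp5g1* fell by 1.54 ± 0.11, *Cox8a* by 1.33 ± 0.08 and *Cox5b* by 1.00 ± 0.07 on the log2 scale.

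The isoforms that had risen in the suspension lay lower in sorted cells. So did *Cox7a1*, which had been called higher in the suspension of the cell preparation comparison only. *Cox6b2* had 5.08 to 10.3 CPM in Cell-Input and 0.342 to 4.06 CPM (median 0.809) in the sorted libraries (-3.20 ± 0.29, edgeR FDR = 1.85e-13), and *Cox7a1* had 2.14 to 3.73 CPM and 0 to 1.16 CPM (-2.91 ± 0.50, edgeR FDR = 1.16e-06). *Cox8b* (0 to 1.34 CPM), *Ndufa4l2* (0 to 1.12 CPM) and *Cox4i2* (0 to 0.870 CPM) held 3 counts or fewer in every library of at least 1 sort, so no fold is given for them. All endothelial and mural markers tested were called lower in the same comparison, and their part was not tested. *Cox6a2* was the member called higher, at 0.667, 0.962, 0.224 and 0.894 CPM in Cell-Input and 1.06 to 3.65 CPM in sorted cells, without overlap (1.54 ± 0.37, edgeR FDR = 0.000253).

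In TRAP, the OXPHOS genes differed little between sorted cells and the suspension. Sorted-TRAP against Cell-TRAP had a median of -0.26 against -0.04 for all genes, and 2 members were called lower (24.4% of all genes) and 0 higher (0.847% of all genes). Those 2 were *Ndufa4l2* and *Cox4i2*, which get no fold for the same reason, at 0 to 0.432 and 0 to 0.279 CPM in the sorted libraries. At any fold, 54 members passed an FDR of 0.1 as lower (34.7% of all genes) and 9 as higher (21.9% of all genes). Among those on the higher side, *Ndufs1*, an iron-sulfur subunit of complex I, had 69.1, 71.5, 73.1 and 76.8 CPM in Cell-TRAP and 79.1 to 104 CPM in sorted cells (0.29 ± 0.07, edgeR FDR = 0.000228), and *Sdha* 294 to 317 CPM and 323 to 378 CPM (0.21 ± 0.05, edgeR FDR = 0.000244). *Atp5b* had a log2 fold change of 0.04 ± 0.06. *Cox17*, the copper chaperone of complex IV, singled out after its values were seen, had one of -0.53 ± 0.09.

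**Figure D3:**
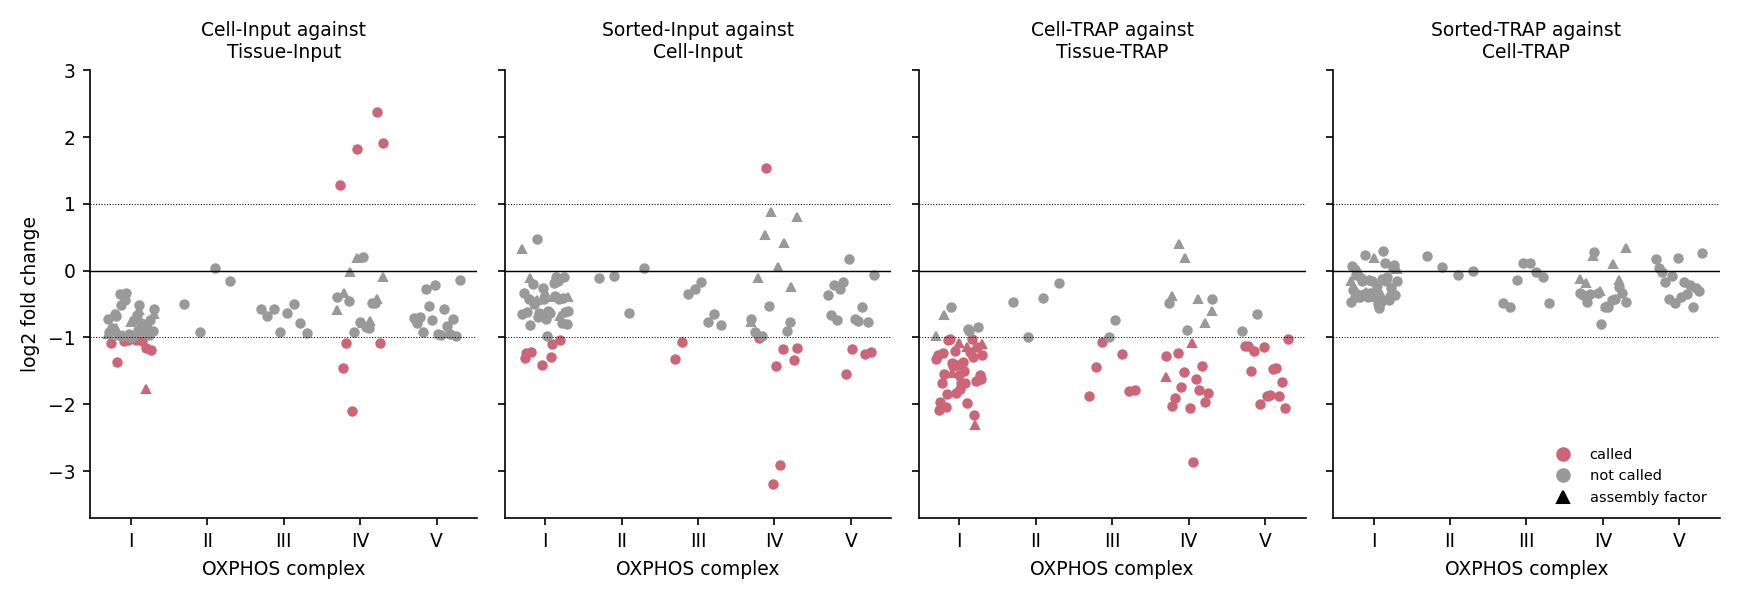
Log2 fold change (y axis) of each OXPHOS gene by complex (x axis) in 4 comparisons of the sort experiment. Each point is a gene, triangles are assembly factors, red marks genes called at an FDR under 0.1 and more than 2-fold (dotted lines), and genes with at most 3 counts in every library of a group are left out. Nearly all genes lie below 0 in Cell-TRAP against Tissue-TRAP (median -1.37), while Sorted-TRAP against Cell-TRAP lies close to 0 (median -0.26).

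The sort methods were compared with each other by an F test across the 4 groups. In Input, 2 members were called with a range above 2-fold (10.7% of all genes) and 56 passed the FDR at any range (30.4% of all genes). In TRAP, 0 were called (3.39% of all genes) and 70 passed the FDR at any range (21.8% of all genes), with 73 at an unadjusted p under 0.05 by edgeR. Of the 70, 68 had their highest mean in autoMACS-TRAP, and of the 56 in Input, 51 did in autoMACS-Input. The differences were small, with a median range between the highest and the lowest sort of 0.49 on the log2 scale for complexes I and V and 0.66 for complex IV in TRAP.

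*Cox17* had 21.9, 25.99, 18.3 and 28.1 CPM in autoMACS-TRAP and 10.3 to 14.7 CPM in the 12 other sorted TRAP libraries (a range between sort means of 0.98 on the log2 scale, edgeR FDR = 1.54e-08). *Atp5e*, the epsilon subunit of the F1 part of ATP synthase, also singled out after its values were seen, had 31.0, 37.9, 29.0 and 36.6 CPM and 16.4 to 23.0 CPM (range 0.86, edgeR FDR = 5.6e-07). In both genes autoMACS stood clear of the other sorts, also of autoMACS to Tyto, which came from 3 of the same 4 mice. *Cox6b2* in Input had 0.681, 0.705, 4.06 and 2.32 CPM in autoMACS and 0.342 to 1.72 CPM elsewhere (range 1.72, edgeR FDR = 0.0494), with replicates 3 and 4 of autoMACS above the rest, and was not called without either of them or when the Input libraries were fitted alone. In Input, 9 to 10 of 12 astrocytic, oligodendrocytic and endothelial markers were also called between the sorts. Their part was not tested.

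TRAP against Input within 1 preparation asks how the pulled-down RNA differs from the RNA of the lysate. In tissue the OXPHOS genes lay close to 0, with a median of -0.02 against 0.03 in the sort comparison (0 called higher, 1 lower, where 9.23 and 1.87% of all genes were) and of 0.01 against 0.00 in the cell preparation comparison (0 higher, 1 lower, where 8.21 and 2.31% were). The neuronal markers took overlapping shares of counts in both fractions of the sort comparison, 0.911 to 1.05% in Tissue-TRAP and 1.04 to 1.08% in Tissue-Input, with 0 of 12 called, while the microglial markers took 1.06 to 1.25% and 0.0481 to 0.0730%. In the sort comparison 16 members had an unadjusted p under 0.05 by edgeR, 8 of them higher in TRAP. The called gene was *Cox8b* both times, with 1.56, 0.979, 1.16 and 0.522 CPM in Tissue-Input and 0.193, 0.256, 0.412 and 0.232 CPM in Tissue-TRAP (-1.90 ± 0.76, edgeR FDR = 0.0571). The cell preparation comparison, on the same mice, gave -1.81 ± 0.65 (edgeR FDR = 0.0442). The call was lost without replicate 1 of Tissue-Input or replicate 1, 2 or 4 of Tissue-TRAP in the sort comparison, and without replicate 1 or 2 of Tissue-TRAP in the cell preparation comparison.

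In the suspension, the median of the OXPHOS genes was lower in TRAP than in Input. Input there holds RNA of all cells of the suspension, and the part of cell makeup was not tested. Of the members, 20 (20.8%) were called lower and 0 higher in the sort comparison, smaller shares than among all genes (30.9 and 16.8%). The medians were -0.64 for the members and -0.07 for all genes. With DESeq2's size factors, which moved the median of all genes by -0.41, 52 members were called lower and 0 higher (37.5 and 9.97% of all genes). Without inhibitors, 54 were called lower and 0 higher (36.7 and 10.6% of all genes, medians -1.13 and -0.42), and with inhibitors 45 and 0 (35.8 and 9.71% of all genes, medians -0.96 and -0.39). *Cox7a1* (-3.25 ± 0.75, edgeR FDR = 0.000187), *Cox6b2* (-2.56 ± 0.42, edgeR FDR = 7.33e-07) and *Ndufa4l2* (-1.92 ± 0.61, edgeR FDR = 0.00448) were furthest below among the called members with enough counts in the sort comparison. Without inhibitors *Cox8b* had 10.7, 12.1, 22.2 and 12.0 CPM in Input and 0.594, 0.499, 0.0879 and 0.174 CPM in TRAP (-5.31 ± 0.62, edgeR FDR = 1.41e-08). The difference between the suspension and tissue was tested as an interaction. It called 15 members (15.6%) lower and 0 higher, smaller shares than among all genes (29.5 and 5.74%). With DESeq2's size factors it called 48 lower and 0 higher (36.5 and 2.02% of all genes). *Cox7a1* (-3.07 ± 0.98, edgeR FDR = 0.00733), *Cox6b2* (-2.71 ± 0.57, edgeR FDR = 0.000107) and *Ndufa4l2* (-2.34 ± 0.85, edgeR FDR = 0.0178) had the largest such differences among members with enough counts, and *Sdha* had 0.02 ± 0.08.

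In sorted cells both fractions come from nearly the same cells, and 4 members were called lower and 0 higher (18.8 and 0.0758% of all genes), with a median of -0.25 against -0.19. At any fold 62 passed the FDR as lower and 15 as higher (42.5 and 22% of all genes). The called members that had enough counts were *Atp5e*, with 34.98 to 60.8 CPM in the sorted Input libraries and 16.4 to 37.9 CPM in TRAP (-1.12 ± 0.06, edgeR FDR = 6.17e-19), and *Cox17* (-1.05 ± 0.06, edgeR FDR = 9.33e-19). On the higher side stood *Ndufs1* (0.44 ± 0.04), *Atp5b* (0.35 ± 0.04) and *Sdha* (0.35 ± 0.03), and on the lower *Cox4i1* (-0.53 ± 0.05).

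In sorted cells and in the suspensions, the log2 fold change of the members in TRAP against Input went with transcript length. This description was added after the values were seen. In the suspension without inhibitors most members lay lower at any length, 36 of 38 under 700 bases (median -1.45) and 20 of 21 of 1500 bases or more (median -0.51). Only in sorted cells did the side change with length. The members are short, with a median transcript length (over protein-coding transcripts) of 810 bases (322 to 4798) against 2723 for other genes. In sorted cells, 35 of 36 members under 700 bases lay lower in TRAP (median -0.45), while 14 of 21 members of 1500 bases or more lay higher (median 0.13). Other genes of the same length classes had medians of -0.63 and -0.07. Spearman's rho of log2 fold change with length was 0.53 over 93 members with at least 1 CPM and 0.07 over 13093 other genes in sorted cells, and 0.60 over 96 members and 0.05 over 14042 other genes in the suspension without inhibitors. Over the members it was 0.56 in the suspension with inhibitors and 0.53 in the suspension of the sort comparison. It was weaker in tissue (0.19 and 0.17) and in the Dounce preparation (0.24). By the study's own account, read coverage in the cell preparation comparison leaned more to the transcript end in Tissue and Dounce than in both suspensions. The part of coverage in these values was not tested. Between groups of the same fraction, rho over the members varied. For Cell-Input against Tissue-Input it was 0.01, and for Cell-Input (-) Inhibitors against Tissue-Input it was -0.21. It was 0.39 for Sorted-Input against Cell-Input, 0.42 for Cell-TRAP against Tissue-TRAP and 0.485 for Sorted-TRAP against Cell-TRAP. The genes share their libraries, so these values carry no test.

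**Figure D4:**
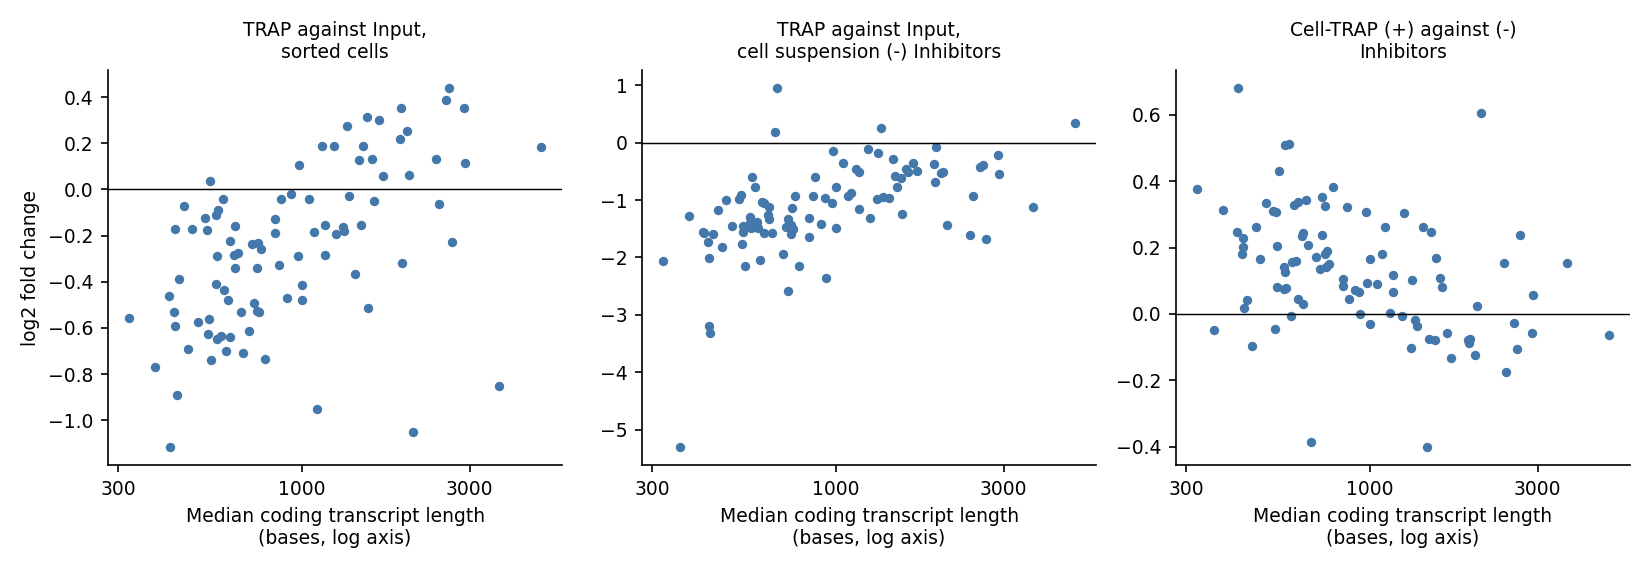
Log2 fold change (y axis) of each OXPHOS gene against its median protein-coding transcript length (x axis, bases, log scale) for TRAP against Input in sorted cells (left) and in the suspension without inhibitors (middle), and for Cell-TRAP with against without inhibitors (right). Each point is a gene. Short transcripts lie lowest in the left and middle panels (Spearman's rho 0.53 and 0.60) and somewhat higher in the right panel (-0.43).

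The Dounce preparation replaces the warm papain step with cold mechanical disruption. Dounce-Input against Tissue-Input called 86 of 96 members lower and 0 higher, where 25.8 and 24.8% of all genes were, with a median of -2.23 against -0.10, and 89 members lay lower without overlap, as did 37.5% of all genes. *Atp5b* had 1693, 1748, 1701 and 1627 CPM in Tissue-Input and 261, 237, 158 and 210.4 CPM in Dounce-Input (-2.97 ± 0.13, edgeR FDR = 3.63e-19). *Cox5a* fell from 266, 283, 249.6 and 245 CPM to 26.4, 23.1, 25.2 and 19.0 CPM (-3.47 ± 0.17, edgeR FDR = 5.5e-18), *Atp5g1* by 3.31 ± 0.21 and *Cox8b* by 3.25 ± 0.78 on the log2 scale. All 5 complexes moved, with medians of -2.15, -1.70, -2.68, -2.06 and -2.36 for complexes I to V and 40, 4, 8, 19 and 15 genes called lower. *Sdha*, which fell little in the papain suspension, had 494, 478, 476 and 457 CPM in Tissue-Input and 172, 162, 140.1 and 123 CPM in Dounce-Input (-1.67 ± 0.10, edgeR FDR = 6.4e-16). Of the 8 complex IV assembly factors 2 were called lower (median -0.42), against 17 of 17 subunits (median -2.39). Of the marker lists, 12 of 12 microglial and 4 of 12 oligodendrocytic genes were called higher in Dounce-Input, while 9 of 12 neuronal, 4 of 12 astrocytic, 6 of 12 endothelial, 2 of 11 mural and 1 of 12 oligodendrocytic genes were called lower. The neuronal markers took 0.477 to 0.522% of counts in Dounce-Input and 1.09 to 1.13% in Tissue-Input, and the microglial markers 0.246 to 0.371% and 0.0478 to 0.0520%. By the study's own account each Dounce sample needed an entire brain and its Input RNA was less intact than that of the other preparations. The part of cell makeup and RNA quality in these differences was not tested.

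Set against the papain suspension, 81 members were called lower and 0 higher in Dounce-Input (35.7 and 23% of all genes), with a median of -1.82 against -0.41. Neuronal markers went the other way, with 11 of 12 called higher in Dounce-Input, while 12 of 12 astrocytic, 12 of 12 endothelial and 10 of 11 mural markers were called lower, and their part in the result was not tested. *Cox8b* (-6.42 ± 0.71, edgeR FDR = 3.43e-09), *Ndufa4l2* (-4.18 ± 0.46, edgeR FDR = 3.01e-09) and *Cox6b2* (-3.41 ± 0.44, edgeR FDR = 2.69e-08) showed the largest differences, with *Cox8b* at 0.330, 0.166, 0 and 0 CPM in Dounce-Input. *Atp5b* differed by -2.37 ± 0.12.

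In TRAP, Dounce against Tissue called 86 members lower and 0 higher (27.7 and 22.8% of all genes), with a median of -2.08 against -0.09. *Atp5b* had 1824, 1646, 1827 and 1501 CPM in Tissue-TRAP and 329.5, 347, 297 and 337 CPM in Dounce-TRAP (-2.37 ± 0.12, edgeR FDR = 9.2e-17). *Ndufb2* (-3.16 ± 0.21) of complex I, *Cox5a* (-3.16 ± 0.17) and *Ndufa11* (-3.08 ± 0.16), also of complex I, fell furthest among the called members with enough counts, and *Sdha* fell by 1.11 ± 0.10. *Cox6a2*, called lower as well, had at most 3 counts in every Dounce-TRAP library and gets no fold. *Cox4i2*, *Cox8b* and *Ndufa4l2* had 0 counts in the 4 Dounce-TRAP libraries, which over 14003183 summed counts allows up to 0.214 CPM, a bound that covers counting error only.

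Between both cell preparations fewer members were called in TRAP. Dounce-TRAP against Cell-TRAP (-) Inhibitors called 9 members lower and 0 higher (8.45 and 22.6% of all genes), with a median of -0.46 against 0.00. Leaving out replicate 3 of Dounce-TRAP gave 35 members called, and the other leave-one-out fits gave 7 or more. *Atp5b* had 691, 689, 677 and 724 CPM in Cell-TRAP (-) Inhibitors, without overlap with Dounce-TRAP (-1.08 ± 0.12, edgeR FDR = 3.3e-09). *Atp5a1* (-1.05 ± 0.11), *Cox6a1* (-1.17 ± 0.14) and *Ndufs8* (-1.11 ± 0.12), an iron-sulfur subunit of complex I, were also called. So was *Cox6b2* (-1.28 ± 0.62, edgeR FDR = 0.0769), whose groups overlapped. The rest of the called members, *Cox6a2*, *Cox8b*, *Cox4i2* and *Ndufa4l2*, had at most 3 counts in every Dounce-TRAP library and get no fold. Within the Dounce preparation, TRAP against Input called 6 members higher and 4 lower (20.8 and 26.7% of all genes), with 35 and 13 past the FDR at any fold (33.4 and 39.9% of all genes).

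The median of the members in that comparison was 0.16 and that of all genes -0.21. With DESeq2's size factors both medians moved down, to -0.07 and -0.44, and the split became 2 higher and 8 lower (17 and 32.5% of all genes), while the difference between both medians stayed at 0.37. Without replicate 3 of Dounce-TRAP the median of the members was -0.20. *Ndufa9* (1.43 ± 0.09, edgeR FDR = 1.17e-14) and *Ndufc2* (1.41 ± 0.13) of complex I, *Atp5f1* (1.19 ± 0.12), the b subunit of the peripheral stalk, and *Sdhb* (1.13 ± 0.14), the iron-sulfur subunit of complex II, were among those called higher in Dounce-TRAP than in Dounce-Input. With DESeq2's size factors *Atp5f1* (0.97) and *Sdhb* (0.91) stayed positive but under the fold threshold. *Ndufa9* had 32.9, 29.5, 32.8 and 27.2 CPM in Dounce-Input and 81.95, 76.6, 87.0 and 84.0 CPM in Dounce-TRAP, without overlap. *Ndufaf4*, an assembly factor of complex I, had a log2 fold change of -1.47 ± 0.20.

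**Figure D5:**
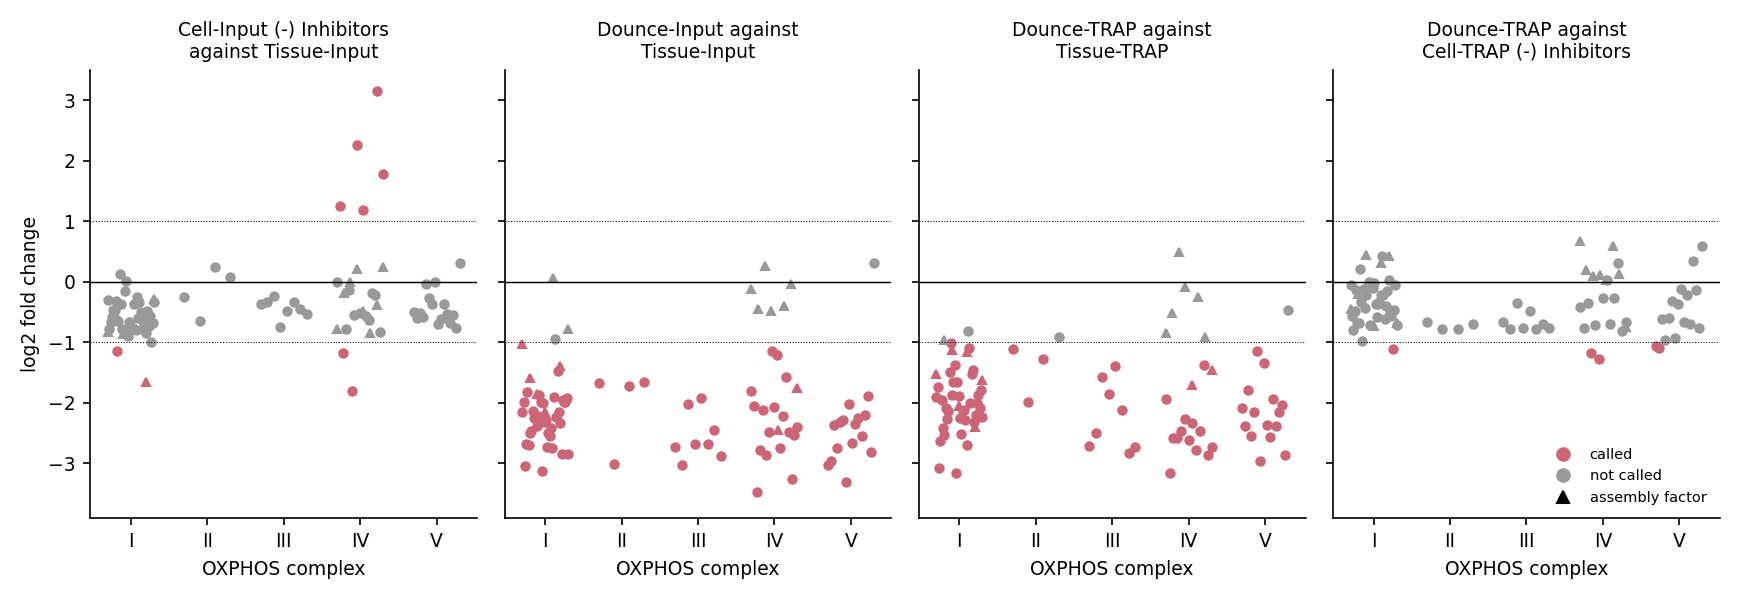
Log2 fold change (y axis) of each OXPHOS gene by complex (x axis) in 4 comparisons of the cell preparation experiment, drawn as in the plot of the sort experiment. The Dounce preparation lies far below tissue in both fractions (medians -2.23 in Input and -2.08 in TRAP), and the complex IV isoforms above 0 in the papain suspension are not above 0 in Dounce-Input.

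Inhibitors of transcription and translation during the papain step left OXPHOS transcripts of the Input close to those without. Cell-Input (+) against (-) Inhibitors called 0 members lower and 0 higher by edgeR (0.296 and 0% of all genes), with 0 members at an unadjusted p under 0.05, a lowest FDR of 1 and a median of -0.02 against 0.01. Without replicate 4 of Cell-Input (+) Inhibitors, whose OXPHOS share of 0.883% lay apart from the 3 other libraries of its group, 0 were called and the median was 0.06. In TRAP, 0 members were called (0.736% of all genes lower, 0.0566% higher) and 16 had an unadjusted p under 0.05, 15 of them higher with inhibitors. At any fold 2 members passed the FDR as higher and 0 as lower (1.53 and 1.29% of all genes), and the median was 0.13 against -0.04. With the mouse as a block, in a fit of these 8 libraries alone, 25 of the 93 members tested passed the FDR as higher and 0 as lower (10.3 and 7.51% of all genes in that fit).

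The 2 genes were those seen in autoMACS. *Atp5e* had 29.3, 33.3, 28.6 and 27.8 CPM without and 47.5, 50.8, 45.7 and 46.5 CPM with inhibitors (0.68 ± 0.14, edgeR FDR = 0.00309), and *Cox17* had 18.6, 16.97, 15.0 and 19.5 CPM and 29.4, 27.1, 23.9 and 26.1 CPM (0.61 ± 0.15, edgeR FDR = 0.017). Both separated the groups. *Cox8a* had a log2 fold change of 0.43 ± 0.14 (edgeR FDR = 0.145) and *Atp5g2* one of 0.51 ± 0.17 (edgeR FDR = 0.136). Short transcripts were again on 1 side, with 33 of 38 members under 700 bases higher with inhibitors (median 0.20, other genes 0.22) and 9 of 21 members of 1500 bases or more (median -0.06, other genes -0.05).

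Other genes of energy metabolism moved partly with the members. Of 16 genes of the tricarboxylic acid cycle, which feeds complexes I and II, 9 were called lower in Cell-TRAP against Tissue-TRAP and 1 higher, where 29.5 and 23.8% of all genes were. *Idh3a* (-1.93 ± 0.10), a subunit of isocitrate dehydrogenase, and *Mdh2* (-1.67 ± 0.08), malate dehydrogenase, fell furthest, and *Suclg2* (1.29 ± 0.11), the GTP-forming subunit of succinyl-CoA ligase, was the one that rose. In Dounce-Input against Tissue-Input 11 of the 16 were called lower and 0 higher (25.8 and 24.8% of all genes). Of 25 further OXPHOS genes with other symbols, 9 were called lower and 0 higher in Cell-TRAP against Tissue-TRAP, where 29.5 and 23.8% of all genes were. The rest of the 25, which is the larger part, were not called. Among the 9 were *Cycs* (-1.67 ± 0.09), cytochrome c, *Usmg5* (-2.37 ± 0.14), an ATP synthase subunit, and *Lyrm7* (-2.72 ± 0.31), a complex III assembly factor.

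Of 13 regulators of mitochondrial biogenesis tested, 6 were called higher in Cell-TRAP against Tissue-TRAP and 2 lower, where 23.8 and 29.5% of all genes were. Those that rose included *Gabpa* (2.01 ± 0.10), *Gabpb1* (1.28 ± 0.09), *Yy1* (1.64 ± 0.09) and *Nrf1* (1.02 ± 0.10). These go with the ETS, YY1 and NRF1 letters counted above, while Sp1 letters were counted as well. The coactivators *Ppargc1a* (-3.31 ± 0.32) and *Ppargc1b* (-1.93 ± 0.38) fell. Neuronal markers also took a smaller share of counts in Cell-TRAP than in Tissue-TRAP, and the part of cell makeup was not tested. In Sorted-Input against Cell-Input 5 were called higher and 1 lower (22.8 and 32.7% of all genes), and in Sorted-TRAP against Cell-TRAP 0 and 1 (0.847 and 24.4% of all genes), the latter being *Ppargc1a* (-5.42 ± 0.36).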

How the data were processed

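RNA was measured by stranded poly(A) sequencing of Input and TRAP fractions, in 48 libraries of the sort comparison and 32 of the cell preparation comparison. The authors aligned reads to mm10, removed duplicates and counted in Strand NGS, and the deposited raw columns hold expected counts, of which 33.2% and 20.8% are whole. Per the labels, DESeq2 was among the authors' tools. These expected counts were rounded, and 23 gene symbols that a spreadsheet had turned into dates were restored in each table.

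A gene was tested (15825 and 15894 genes) when all samples of some group had over 5 counts. Each table was fitted once in edgeR 4.0.16 (R 4.3.3) with TMM factors and the quasi-likelihood F test, without a block, with Benjamini-Hochberg adjustment over all genes tested (FDR). A gene was called at an FDR under 0.1 and a fold above 2. Standard errors were obtained from F as |log2 fold change| / √F. Genes with at most 3 counts in every library of a group get no fold. Differences among sorts are ranges between group means. On simulated counts, 95% of genes changed by 1.5 on the log2 scale and 100% of those changed by 3 were called for Cell-Input against Tissue-Input (7 false calls of 15825), and 91% and 100% for Dounce-TRAP against Tissue-TRAP (5 false calls of 15894). Only 100 genes per size were changed, up and down alike, so the simulation does not cover errors of scaling where many genes change. Alternatives were DESeq2 1.42.0, its size factors in edgeR, other count filters, fits of 1 fraction, replicate blocks and leaving out each library.

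The members, gene lists and marker lists were chosen with earlier results of these data known. Named genes were 10 core subunits, 14 isoforms and paralogues, and in each comparison the 3 highest and 3 lowest called members. Others were singled out after their values were seen. Within a group the samples are separate mice, some of which are shared between groups, and TRAP and Input of 1 sample share a homogenate. Same-homogenate deviations from group means correlated at a median r of 0.16 in the sort comparison (17 of 24 pairs over 0.1) and 0.108 in the cell preparation comparison (9 of 16). Same-mouse medians were 0.002 and 0.073 for Tissue and Cell in Input and TRAP, and 0.057 and 0.127 for both inhibitor groups. No 2 libraries of a table held identical counts in more than 13.3% of genes. The normalized columns beside them, and an earlier table of part of the cell preparation libraries, were not used here. Leave-one-out fits and counts of members per list (tricarboxylic acid cycle, other OXPHOS genes, biogenesis regulators, cell markers) used the same fit and call rule.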

Additional observations from a re-analysis of the deposited data

Results flagged for a closer look

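Values were examined for a sample far from the rest of its group by Dixon's test in 216 groups of 4 or 5 libraries, of which 15 stood out, where chance flags about 1 in 20 groups. Replicate 4 of Cell-Input (+) Inhibitors lay apart in the share of counts held by the OXPHOS genes (0.883%), in *Cox4i1* (404.9 CPM), in *Sdha* (317 CPM) and in *Cox17* (36.5 CPM). Other Input values far from their group were *Cox8b* in replicate 4 of FACSAria (0.795 CPM) and in replicate 3 of Cell (-) Inhibitors (22.2 CPM), and *Cox6b2* in replicate 2 of Cell of the sort comparison (5.08 CPM). In TRAP they were *Atp5b* in replicate 4 of Tyto (523 CPM), *Cox8b* (0.122 CPM) and *Cox4i2* (0.243 CPM) in replicate 5 of Tyto, *Ndufa4l2* in replicate 4 of autoMACS (0.432 CPM), *Cox7a2l* (90.4 CPM) and *Atp5e* (21.6 CPM) in replicate 1 of Cell of the sort comparison, *Cox6b2* in replicate 2 of Cell (-) Inhibitors (0.915 CPM), and *Cox7a2l* in replicate 3 of Tissue of the cell preparation comparison (152 CPM).

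The difference between TRAP and Input itself differed between the suspension and tissue for 15 members (15.6%), all lower, by edgeR's test of the interaction. That test called larger shares of all genes, 29.5% lower and 5.74% higher. *Cox7a1* (-3.07), *Cox6b2* (-2.71) and *Ndufa4l2* (-2.34) had the largest such log2 differences among members with enough counts.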

How the results depend on the processing

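Counts of called members and their medians kept their direction under most alternatives. Of the summary values 633 changed little, 67 moved and 0 were labelled reversed, a label that did not cover every change of sign. For named genes 1462 kept their side, 34 weakened, 5 strengthened and 8 reversed. The median for TRAP against Input in Dounce was 0.16 in the main fit and -0.20 at the lowest when a library was left out. With DESeq2's size factors the members called there went from 6 higher and 4 lower to 2 higher and 8 lower. Medians close to 0, for TRAP against Input in tissue and for inhibitors in Input, also changed sign when a library was left out. The causes of these changes were not tested.

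With DESeq2's size factors in edgeR, 52 members were called for TRAP against Input in the suspension of the sort comparison (median -1.05), 56 for Sorted-Input against Cell-Input (-1.12) and 48 for the interaction (-0.98). Medians became -0.10 for TRAP against Input in tissue, -1.70 for Cell-TRAP against Tissue-TRAP, -1.003 in the suspension without inhibitors, -0.067 in Dounce, -2.03 for Dounce-Input against Tissue-Input and -1.55 against Cell-Input. The DESeq2 test gave 52, 56 and 48 called members with medians equal to 2 decimals (-0.068 in Dounce). The members' median less that of all genes changed by at most 0.0062 between both scalings.

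With at least 10 counts in every sample, fewer genes were tested, and 0 members were called for TRAP against Input in tissue (both comparisons, medians -0.14 and -0.10), Sorted-TRAP against Cell-TRAP and the sorts in Input, 2 for TRAP against Input in sorted cells, 51 in the suspension (-1.07), 32 for Cell-Input against Tissue-Input (-0.87), 51 for Sorted-Input against Cell-Input (-1.14), 43 for the interaction (-0.95), 5 for Cell-Input (-) Inhibitors against Tissue-Input (-0.66) and 4 for Dounce-TRAP against Cell-TRAP. Medians were -1.80 for Cell-TRAP against Tissue-TRAP, -0.25 for TRAP against Input in Dounce, -1.91 for Dounce-Input against Tissue-Input and -1.35 against Cell-Input. *Cox15* in Cell-TRAP against Tissue-TRAP reversed to -0.030.

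With the libraries of 1 fraction alone, 10 members were called for Cell-Input against Tissue-Input and 1 for the sorts in Input, and medians were -0.87 for Sorted-Input, -0.66 for Cell-Input (-) Inhibitors, -2.02 for Dounce-Input against Tissue-Input and -1.47 against Cell-Input. *Cox4i1* in Cell-Input (-) Inhibitors against Tissue-Input reversed to -0.073 with DESeq2's size factors and to -0.0735 with the DESeq2 test, to -0.11 with the stricter filter, to -0.14 within the fraction, and ranged from -0.093 (without Cell-Input replicate 3) to 0.057 (without Cell-Input replicate 2) when 1 library was left out.

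Leaving out 1 library gave 0 to 1 called members for TRAP against Input in tissue in both comparisons, 15 to 27 for Cell-Input against Tissue-Input (27 without Cell-Input replicate 4), 1 to 2 for the sorts in Input, 0 to 1 in TRAP, and 7 to 35 for Dounce-TRAP against Cell-TRAP (35 without Dounce-TRAP replicate 3). Medians ranged from -0.20 to 0.22 for TRAP against Input in Dounce, from -2.35 to -2.19 for Dounce-Input against Tissue-Input and from -0.83 to -0.37 for Dounce-TRAP against Cell-TRAP.

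With the homogenate as a replicate block, 1, 20 and 4 members were called for TRAP against Input in tissue, suspension and sorted cells, and 1, 53, 44 and 10 in tissue, both suspensions and Dounce of the cell preparation comparison. With the mouse as a block, 25 were called for Cell-Input and 75 for Cell-TRAP against tissue and 0 for inhibitors in either fraction. The block moved no other count of members called at a fold above 2 by more than 1.5 times. Depth limits the isoforms under 1 CPM most, above all in Dounce-TRAP.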
